A study of Mus musculus with 20 samples.

Results

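Hippocampal RNA-seq libraries of mice were sorted by how much choroid plexus transcript they held, and the rich libraries were compared with the poor ones. The sorting used Ttr, the gene for transthyretin, which choroid plexus epithelium makes in great abundance. In each of the 4 treatment groups the 5 libraries were ranked by Ttr in CPM (raw counts per 1000000 of the library's total), the top 2 formed the rich side and the bottom 2 the poor side, and the middle library was left out. This gave 8 rich and 8 poor libraries, 16 of the 20 in the series, with every treatment group on both sides in equal number. Ttr chose the libraries and is therefore no result.

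Each library came, per the labels, from 1 frozen hippocampus of a male wild-type mouse aged 10 to 12 weeks, with 5 mice per group. Control mice received isotype-matched antibody. ICI mice received immune checkpoint inhibitors, an antibody to CTLA-4 at 1 mg per dose 3 times a week and one to PD-1 at 200 µg per dose 2 times a week. Melanoma mice carried intradermal D4M-3A.UV2 tumours, a syngeneic mouse melanoma line injected bilaterally at 500000 cells per injection and left for 1 week to engraft, and received isotype antibody. Melanoma plus ICI mice carried the same tumours and received both checkpoint antibodies, for which the labels state 3 weeks. The mice were killed 72 hours after their final dose.

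The choroid plexus is a fold of epithelium over fenestrated capillaries that hangs in each brain ventricle, where it secretes cerebrospinal fluid and forms the barrier between blood and that fluid. Its epithelial cells pump sodium, chloride and bicarbonate with water into the ventricle, carry vitamins, metals and hormones across, and release proteins such as transthyretin. A strip of it lies in the lateral ventricle along the fimbria, directly beside the hippocampus, so a dissected hippocampus can carry more or less of it. In bulk tissue, fewer cells of a type and less RNA per cell cannot be told apart.

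The levels that placed the libraries spanned a wide range in every group. In control, Ttr stood at 5520.3 and 4683 CPM in the rich libraries, 2288 CPM in the middle one, and 19.1 and 15.9 CPM in the poor ones. In ICI the order was 2068 and 1655 CPM, then 606 CPM, then 254 and 2.09 CPM, the last resting on 50 counts. In melanoma it was 3313 and 811 CPM, then 372 CPM, then 74.3 and 13.9 CPM. The values in melanoma plus ICI were 6232 and 2932 CPM, then 2026 CPM, then 1237 and 44.2 CPM. The poor side is thus poor only within its own group. Melanoma plus ICI replicate 2, on the poor side, held more Ttr than melanoma replicate 5, on the rich side. Next to the lower limit, the middle library exceeded the upper of the poor libraries 120-fold (control), 2.39-fold (ICI), 5.00-fold (melanoma) and 1.64-fold (melanoma plus ICI). Next to the upper limit, the lower of the rich libraries exceeded the middle one by 1.45-fold to 2.73-fold.

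**Figure D1:**
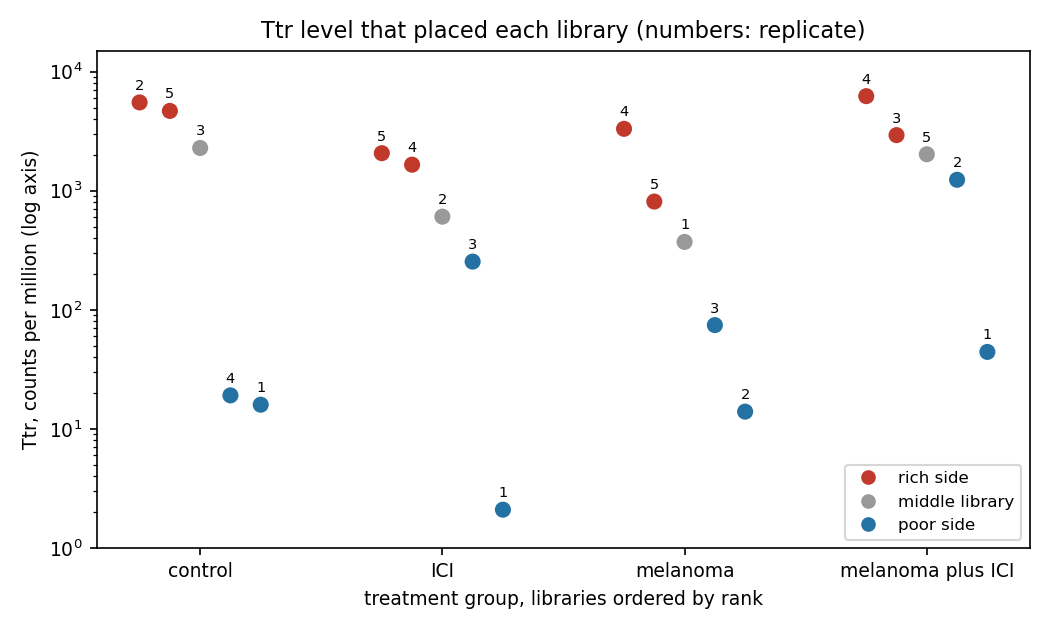
Ttr in CPM (log axis) for each of the 20 libraries, by treatment group and ordered by rank, with the replicate number above each point. Red points are rich, grey points the middle library and blue points poor; the poor point of melanoma plus ICI at 1237 CPM lies above the rich point of melanoma at 811 CPM.

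Total counts ranged from 21990624 to 25735149 per library and overlapped between the sides, and 24674 to 26194 genes had at least 1 count. Control replicate 4 and melanoma plus ICI replicate 1 stood apart by the share of counts from the mitochondrial genome, 5.10% and 4.28% against 3.08% to 3.79% in the other libraries, and both fell on the poor side. The median share was 3.62% on the poor side and 3.33% on the rich side, and of 13 mitochondrial genes 12 stood below 0, at a median log2 fold change of -0.29, with 0 past the threshold. Counts are therefore given with and without this pair. The sides were also formed from the same libraries' own Ttr, so genes that vary with Ttr differ between them by the choice of libraries. The tests describe these 16 libraries and are no independent evidence. The labels speak of 5 brains per group, while the library names of ICI replicate 5 and melanoma plus ICI replicate 1 end in the same number, 64, whose meaning is not given.

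Genes of the choroid plexus epithelium were among those that differed between rich and poor libraries. Of 18426 genes tested besides Ttr, 389 (2.11%) passed an adjusted p of 0.05 with the treatment group in the model. Of these, 368 (2.00%) were higher on the rich side and 21 (0.114%) were lower. The whole count was 845 with DESeq2, 815 with limma voom and 127 with only the highest and lowest library of each group. The lower count was 150 with DESeq2, 109 with limma voom and 116 with Ttr as a continuous covariate over 20 libraries. On leaving out single libraries it ran from 2 (melanoma plus ICI replicate 1) to 85 (melanoma replicate 4). Protein-coding genes made up 349 of the 368 higher genes (94.8%) and 12 of the 21 lower ones (57.1%), beside 82.1% of all genes tested. Of the higher genes, 48 were in the choroid plexus lists described below and 60 in any of the 35 lists. Of the 368, 192 differed by more than 2-fold, 79 by more than 4-fold and 25 by more than 8-fold. The median log2 fold change over all genes tested was -0.0034. Without control replicate 4 and melanoma plus ICI replicate 1 the count was 179, of which 177 were higher and 2 lower. Leaving out single libraries gave 199 to 516 genes, and the count moved by more than 1.5 times without control replicate 2 (213 genes), control replicate 5 (234 genes), ICI replicate 4 (238 genes), melanoma plus ICI replicate 1 (236 genes) or melanoma plus ICI replicate 4 (199 genes).

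**Figure D2:**
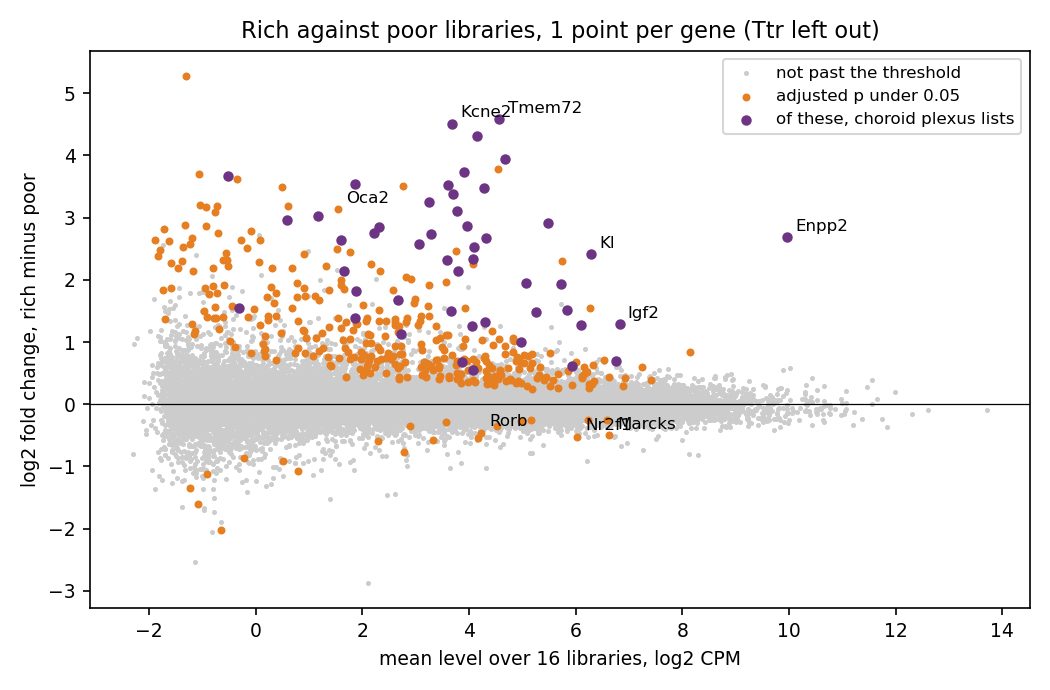
Log2 fold change of rich over poor libraries against mean level in log2 CPM over the 16 libraries, 1 point per gene with Ttr left out. Orange points passed an adjusted p of 0.05 and purple points are those that belong to the choroid plexus lists; the 48 purple points all lie above 0, and Enpp2 is the most abundant of them.

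Lists of choroid plexus genes were grouped by role and chosen with earlier results of these data known. The counts below, set beside the shares of all genes, are therefore a description and no independent evidence. Of 71 tested members, 48 were higher on the rich side and 0 lower, beside 2.00% and 0.114% of all genes, and their median log2 fold change was 1.498. In 60 of the 71 the rich mean exceeded the poor mean in all 4 treatment groups, as it did in 13.4% of all genes tested. In 5 of the 71 every rich library lay above every poor one across the groups, as in 0.288% of all genes. Leaving out the pair that stood apart, 40 of the 71 were higher, and leaving out single libraries gave 42 to 48.

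The transcription factors that specify the choroid plexus were among the higher genes, in 4 of 8 tested. Otx2, a homeobox factor needed to form and maintain the choroid plexus, had 6.12, 17.4 and 31.2 CPM as the lowest, median and highest rich library and 0.343, 1.77 and 7.13 CPM on the poor side. The ranges met only through melanoma plus ICI replicate 2, the highest poor library, and melanoma replicate 5, the lowest rich one. On the log2 scale the fold change came to 2.74 ± 0.49 (SE, from the fitted model), at an adjusted p of 0.00827. Lmx1a, a homeobox factor of the roof plate from which this epithelium develops, ran from 0.781 to 4.62 CPM on the rich side and from 0 to 0.856 CPM on the poor side, a log2 fold change of 2.97 ± 0.48 (adjusted p = 0.00461). Msx1, another homeobox factor of dorsal midline tissue, had 10.0, 17.7 and 32.6 CPM (lowest, median, highest) on the rich side and 4.29, 5.98 and 9.90 CPM on the poor side. It was the only member of this group whose sides did not overlap, with a log2 fold change of 1.498 ± 0.21 (adjusted p = 0.00255). Gmnc, a regulator of multiciliated cells, was higher by 1.38 ± 0.29 (adjusted p = 0.0235). Foxj1, the master factor of motile cilia, had a log2 fold change of 1.05 ± 0.28 that missed the threshold (adjusted p = 0.0738), and Rfx3, Meis1 and Trp73 missed it too, at 0.12, -0.22 and 0.97. With control replicate 4 and melanoma plus ICI replicate 1 left out, 3 of the 8 passed.

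The promoters of the higher choroid plexus genes were read for TAATCC, a core sequence that Otx2 and related homeobox factors recognise, on both strands (the reverse reads GGATTA), in the 250 bases before each RefSeq start site. RefSeq windows on GRCm38.p6 were found for 36 of the 48 genes, and 5 of the 36 (13.9%) held a match in at least 1 window, beside 6.38% of the 12764 tested genes with a window and 7.21% of all 27025 genes in the table. A gene with more windows has more places for a match. The 36 genes had 55 windows and the 12764 had 16279. Per window the shares were 9.09% for the 36 genes, 5.20% for the tested genes and 6.25% for all. The 5 windows with a match are shown because they belong to genes that moved with Otx2, one of them Otx2 itself. They lie at chr14:48665110-48665359 (Otx2, minus strand), chr3:122044210-122044459 (Abca4, plus strand), chr11:105967698-105967947 (Ace, plus strand), chr5:5694569-5694818 (Steap2, minus strand) and chr3:95904686-95904935 (Car14, minus strand). Each reads 5′ to 3′ on its gene's strand, with the match in capitals.
Otx2: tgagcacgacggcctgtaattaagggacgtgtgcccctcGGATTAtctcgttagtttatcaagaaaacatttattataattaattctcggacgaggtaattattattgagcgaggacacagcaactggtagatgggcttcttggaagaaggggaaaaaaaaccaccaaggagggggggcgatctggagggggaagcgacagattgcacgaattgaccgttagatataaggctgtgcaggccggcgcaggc
Abca4: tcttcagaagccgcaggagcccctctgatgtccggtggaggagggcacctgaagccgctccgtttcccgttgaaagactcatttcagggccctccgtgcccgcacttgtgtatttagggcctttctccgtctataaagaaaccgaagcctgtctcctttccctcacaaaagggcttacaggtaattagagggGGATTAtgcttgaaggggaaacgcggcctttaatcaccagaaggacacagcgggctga
Ace: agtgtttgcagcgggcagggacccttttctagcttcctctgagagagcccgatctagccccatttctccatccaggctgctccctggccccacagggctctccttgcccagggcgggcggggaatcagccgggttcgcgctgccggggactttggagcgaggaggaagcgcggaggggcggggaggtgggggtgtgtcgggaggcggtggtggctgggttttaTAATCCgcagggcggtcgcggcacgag
Steap2: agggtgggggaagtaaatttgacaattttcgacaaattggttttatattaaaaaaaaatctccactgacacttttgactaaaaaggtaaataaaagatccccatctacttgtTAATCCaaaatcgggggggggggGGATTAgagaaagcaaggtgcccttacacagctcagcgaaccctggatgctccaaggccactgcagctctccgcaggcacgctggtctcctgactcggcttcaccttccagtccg
Car14: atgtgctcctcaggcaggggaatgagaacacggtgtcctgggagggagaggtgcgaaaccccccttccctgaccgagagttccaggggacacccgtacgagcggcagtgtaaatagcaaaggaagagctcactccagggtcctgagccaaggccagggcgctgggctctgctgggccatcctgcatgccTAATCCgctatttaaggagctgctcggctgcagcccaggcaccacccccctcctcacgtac
The Steap2 window holds a match on each strand and the others 1 match. A match describes the letters in the window and was not tested as a binding site.

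Genes for moving ions and water held the 2 largest fold changes of the lists, with 11 of 16 tested members higher and a median log2 fold change of 2.09. Tmem72, a membrane protein of the choroid plexus, had 10.9, 43.1 and 81.9 CPM as the lowest, median and highest rich library and 0.0858, 0.463 and 17.5 CPM on the poor side. Kcne2, a potassium channel subunit at the ventricular face of the epithelium (chr16:92292389-92298129 in the deposited tables), had 5.47, 20.7 and 49.6 CPM on the rich side and 0.185, 0.436 and 7.37 CPM on the poor side. For both genes the highest poor value came from melanoma plus ICI replicate 2 and the lowest rich value from melanoma replicate 5. Their log2 fold changes were 4.58 ± 0.76 (adjusted p = 0.00547) and 4.51 ± 0.63 (adjusted p = 0.00251), or 23.9-fold and 22.8-fold. Slc4a5, a sodium bicarbonate cotransporter of the ventricular face, followed at 4.31 ± 0.76 (adjusted p = 0.00746).

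Aqp1, the water channel through which fluid leaves the epithelium, had 9.07, 21.0 and 54.6 CPM on the rich side and 0.515, 0.672 and 13.6 CPM on the poor side, a log2 fold change of 3.74 ± 0.63 (adjusted p = 0.00565). Under 1 CPM of it was found in 6 of the 8 poor libraries, and of the other 2 only melanoma plus ICI replicate 2 reached the rich range. Cldn2, the cation-permeable claudin of this barrier, was higher by 3.53 ± 0.63 (adjusted p = 0.00824), and the chloride channel family member Clic6 by 2.91 ± 0.55 (adjusted p = 0.0116). The cation channel Trpv4, the carbonic anhydrase Car14 and the anion exchanger Slc4a2 were the 3 members whose sides did not overlap. Trpv4 ran from 7.81 to 44.4 CPM on the rich side and from 1.45 to 7.78 CPM on the poor side, a log2 fold change of 3.11 ± 0.35 (adjusted p = 0.00212). Car14 differed by 1.26 ± 0.15 (adjusted p = 0.00231) and Slc4a2 by 1.28 ± 0.19 (adjusted p = 0.00289). Slc12a2, the sodium, potassium and chloride cotransporter that other brain cells also use, differed by 0.70 ± 0.13 (adjusted p = 0.0108).

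Of the ion and water genes, 5 of 16 did not pass the threshold. Atp1b1, a beta subunit of the sodium pump, had 1223, 1516 and 1757 CPM on the rich side and 1423, 1653 and 1976 CPM on the poor side, a log2 fold change of -0.16 ± 0.09 (adjusted p = 0.335). Slc4a10, a sodium-dependent bicarbonate transporter of both epithelium and neurons, ranged from 201 to 293 CPM on the rich side and from 196 to 300.1 CPM on the poor side, with a log2 fold change of 0.05 ± 0.09 (adjusted p = 0.77). Car12 stood at 0.86 ± 0.31 (adjusted p = 0.175) and Slc26a11 at 0.11. Kcnj13, the inward rectifier Kir7.1, was higher by 3.38 ± 0.54 (adjusted p = 0.00406), but genes overlapping it on the opposite strand held 747% as many counts as Kcnj13 itself, and the same figure was 180% for Car14 and 115% for Slc4a2. The sources used here do not say whether counting used strand, so for these 3 genes reads of either strand cannot be told apart. In the fit without the libraries that stood apart, 10 of the 16 ion and water genes passed.

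Carriers of vitamins, metals and hormones were higher in 13 of 19, with a median log2 fold change of 1.26. Folr1, the folate receptor through which the choroid plexus supplies folate to the brain, had 6.38, 16.8 and 30.1 CPM on the rich side and 0.353, 1.09 and 7.21 CPM on the poor side. Only melanoma plus ICI replicate 2 among the poor libraries reached the rich range, and the log2 fold change was 3.26 ± 0.48 (adjusted p = 0.00273). Counts of genes on the opposite strand amounted to 120% of Folr1's own. Steap1, a member of a family of metal reductases, had 1.61, 5.15 and 13.4 CPM on the rich side and 0.171, 0.231 and 3.10 CPM on the poor side, a log2 fold change of 3.54 ± 0.51 (adjusted p = 0.00267), and its neighbour in the family Steap2 differed by 1.33 ± 0.18 (adjusted p = 0.00247). Slco1a5, an organic anion transporter, was scarce at 0.434 to 2.38 CPM on the rich side and 0 to 0.448 CPM on the poor side, and differed by 3.67 ± 0.50 (adjusted p = 0.00248).

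Of the carrier list's retinoid genes, some passed and Stra6, a receptor for retinol uptake, did not, at 0.70 (adjusted p = 0.206). Rdh5, a retinol dehydrogenase, had 6.60, 20.01 and 34.0 CPM on the rich side and 1.84, 3.13 and 11.2 CPM on the poor side, a log2 fold change of 2.33 ± 0.32 (adjusted p = 0.00248). Abca4, a retinoid transporter best known from photoreceptors, differed by 2.53 ± 0.36 (adjusted p = 0.00267). Slc31a1, the copper importer, and Slco1c1, a thyroid hormone carrier also found in brain capillaries, differed by 1.00 ± 0.15 (adjusted p = 0.00273) and 0.61 ± 0.09 (adjusted p = 0.00251), with opposite-strand counts at 66.2% of those of Slc31a1. Slc13a4, a sulfate transporter that meningeal cells also make, reached 33.4 CPM in a poor library and missed the threshold at 1.26 ± 0.35 (adjusted p = 0.0871). Slc29a4, Slc23a2 and Slc19a1 also missed it at log2 fold changes of 0.23 to 0.71. Without the pair of libraries that stood apart, 10 of the 19 carriers passed.

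Secreted proteins and hormone receptors were higher in 13 of 17, with a median log2 fold change of 2.33. Enpp2, or autotaxin, the enzyme that makes lysophosphatidic acid in cerebrospinal fluid, was the most abundant, with 572, 1715 and 3151 CPM as the lowest, median and highest rich library and 109.9, 220 and 663 CPM on the poor side. The 2 sides overlapped only between melanoma plus ICI replicate 2 and melanoma replicate 5, and the log2 fold change was 2.68 ± 0.33 (adjusted p = 0.00231). Myelinating oligodendrocytes also make Enpp2. The 16 genes of the oligodendrocyte and myelin list all stood above 0, at a median log2 fold change of 0.39, with 0 past the threshold. Their mean log2 CPM ran from 6.57 to 7.47 on the rich side and from 6.06 to 7.50 on the poor side, and their part in the Enpp2 difference was not tested.

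F5, coagulation factor V, had 12.8, 38.4 and 100.3 CPM on the rich side and 0.554, 1.25 and 19.4 CPM on the poor side, a log2 fold change of 3.94 ± 0.62 (adjusted p = 0.00358). 1500015O10Rik, the gene of the secreted peptide precursor Ecrg4, differed by 3.48 ± 0.51 (adjusted p = 0.00289). Kl, or klotho, a co-receptor for fibroblast growth factors that is also shed into cerebrospinal fluid, had 43.6, 107 and 252 CPM on the rich side and 9.99, 14.8 and 65.3 CPM on the poor side, a log2 fold change of 2.42 ± 0.45 (adjusted p = 0.00995). Prlr, the prolactin receptor, differed by 2.67 ± 0.42 (adjusted p = 0.00358), Sostdc1, a secreted antagonist of BMP and Wnt signals, by 2.87 ± 0.42 (adjusted p = 0.00267), and Ace, angiotensin-converting enzyme, by 1.93 ± 0.31 (adjusted p = 0.00461).

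The growth factor pair showed smaller differences. Igf2, insulin-like growth factor 2, which meninges also release, had 67.7, 135 and 264 CPM on the rich side and 32.1, 48.3 and 165 CPM on the poor side, so the sides overlapped widely, and differed by 1.29 ± 0.27 (adjusted p = 0.0234). Igfbp2, which binds it, had 37.2, 66.8 and 145 CPM on the rich side and 16.3, 23.6 and 60.9 CPM on the poor side and differed by 1.52 ± 0.20 (adjusted p = 0.00247). The 4 members of this list that missed the threshold were Cst3 at -0.11 ± 0.11 (adjusted p = 0.554), Clu at 0.08 ± 0.06 (adjusted p = 0.46), Trf at 0.42 ± 0.20 (adjusted p = 0.273) and the serotonin receptor gene Htr2c at 0.57 ± 0.26 (adjusted p = 0.25). Leaving out the pair that stood apart, 12 of the 17 secreted protein and receptor genes passed.

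Junction and keratin genes of the epithelium were higher in 7 of 11, with a median log2 fold change of 1.49. Krt18 and Krt8, the keratin pair of simple epithelia, differed by 2.85 ± 0.45 and 2.63 ± 0.41 (both adjusted p = 0.00358). Krt8 had 2.17, 5.59 and 9.12 CPM on the rich side and 0.157, 0.749 and 1.87 CPM on the poor side, and was the member whose sides did not overlap. Cldn1, a sealing claudin, differed by 1.67 ± 0.38 (adjusted p = 0.0327) and Perp, a desmosome protein, by 1.12 ± 0.16 (adjusted p = 0.00267). Cdh1, or E-cadherin, had 1.02 to 6.08 CPM on the rich side and 0.524 to 5.76 CPM on the poor side and stood at -0.04 ± 0.46 (adjusted p = 0.97), and Epcam, Cldn3 and Spint2 also missed the threshold. With control replicate 4 and melanoma plus ICI replicate 1 left out, 5 of the 11 passed.

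**Figure D3:**
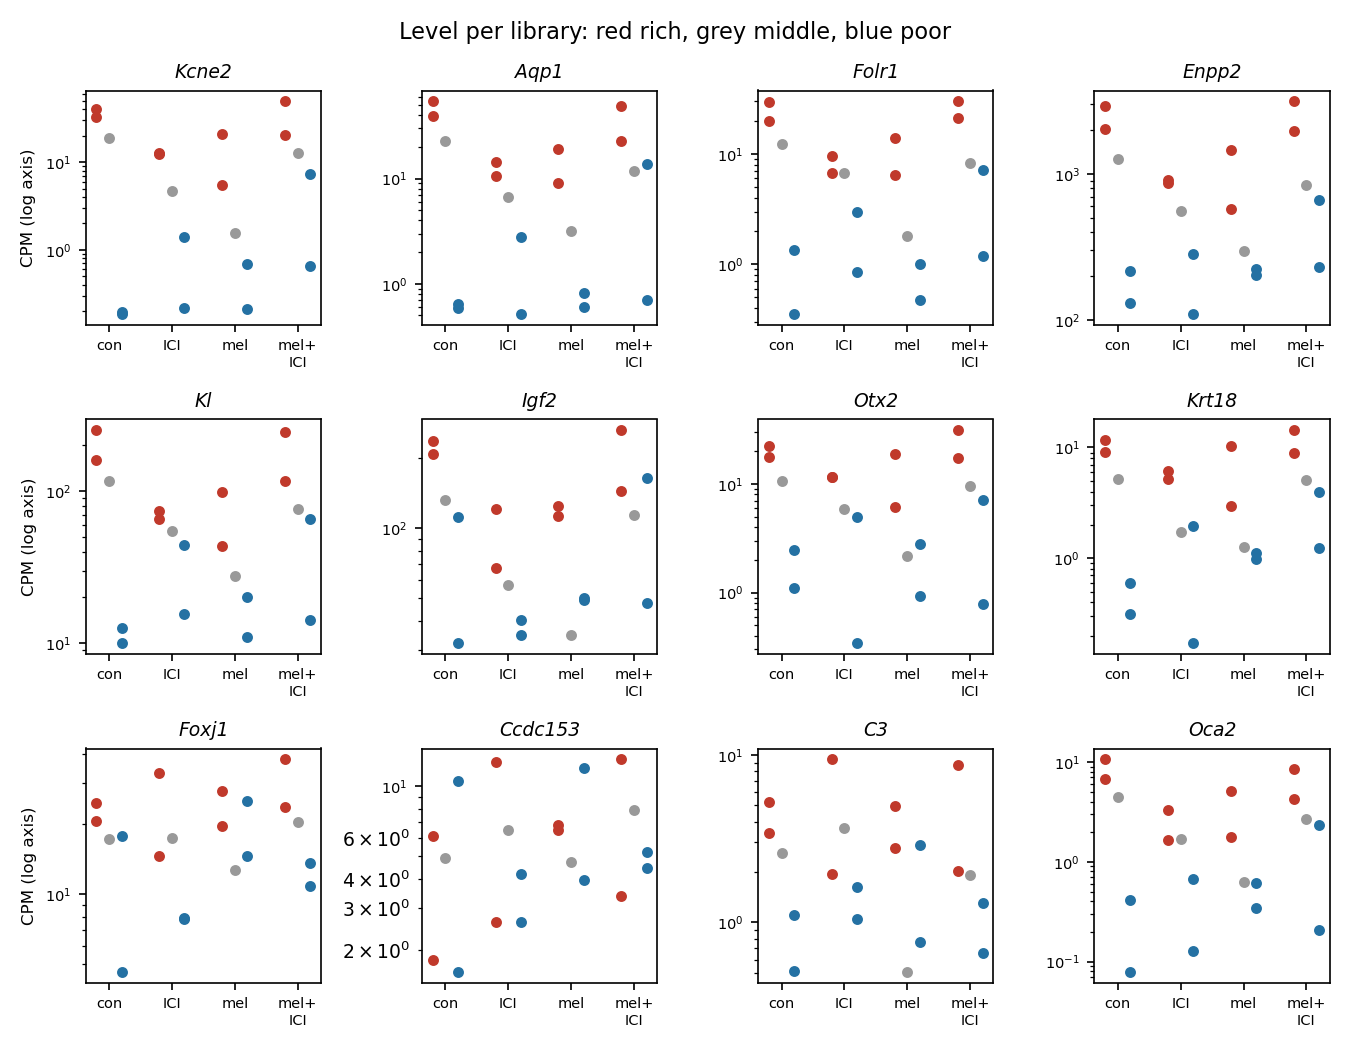
Level in CPM (log axis) of 12 genes in each of the 20 libraries, by treatment group (con control, mel melanoma), with red rich, grey middle and blue poor libraries. Kcne2, Aqp1, Folr1, Enpp2, Kl, Otx2 and Krt18 step from red through grey to blue in most groups, while Ccdc153, a gene of motile cilia, ranges from 1.81 to 12.99 CPM on the rich side and from 1.61 to 12.0 CPM on the poor side.

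How steeply a gene moved with Ttr differed among the members. A fit over all 20 libraries with the treatment group in the model gives the log2 change per doubling of Ttr, as a description. It was 0.94 ± 0.04 (SE) for Tmem72, 0.91 ± 0.04 for Slc4a5 and 0.87 ± 0.04 for Kcne2, close to a change in proportion to Ttr. It was 0.73 ± 0.05 for F5, 0.71 ± 0.04 for Aqp1, 0.55 ± 0.05 for Folr1, 0.50 ± 0.04 for Otx2 and 0.39 ± 0.04 for Enpp2, and 0.17 ± 0.04 for Igf2. In the library with the least Ttr, ICI replicate 1, Enpp2 stood at 109.9 CPM beside 2.09 CPM of Ttr and 0.0858 CPM of Tmem72. This holds for Enpp2 and not for every gene with a slope below that of Tmem72. By Pearson correlation of log2 CPM with Ttr over the 20 libraries, with treatment group means removed, the 5 genes most like Ttr were Tmem72 (0.98), Slc4a5 (0.97), Clic6 (0.97), Prr32 (0.97) and Kcne2 (0.97). Of these, Prr32, a proline-rich protein gene, is in none of the lists and differed by 2.504 ± 0.52 between the sides (adjusted p = 0.022).

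The libraries left out of the comparison were the middle ones by Ttr, and the genes below were chosen for their gap between the sides, so their positions are a description. Of the 48 higher choroid plexus genes, the middle library lay between the rich and the poor mean for 48 (control), 46 (ICI), 36 (melanoma) and 47 (melanoma plus ICI). The shares were 88.3%, 82.3%, 46.7% and 83.4% for the 368 genes higher on the rich side, and 46.0%, 34.5%, 27.3% and 43.1% for all genes tested. Ranking the libraries by the mean log2 CPM of the 71 list genes, with Ttr not among them, put all 16 libraries on the same side as Ttr did. That score was 3.86, 4.67 and 5.42 (lowest, median, highest) on the rich side and 2.37, 2.59 and 4.13 on the poor side, where 4.13 is melanoma plus ICI replicate 2 and the next poor library stood at 2.996.

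In each treatment group all 48 genes had a higher rich than poor mean log2 CPM, and since the same comparison chose them this is a description. The median difference over the 48 was 3.51 for control, 2.17 for ICI, 2.11 for melanoma and 2.37 for melanoma plus ICI, beside medians over all genes tested of -0.01, -0.01, 0.00 and 0.00. The gap in mean log2 Ttr between the sides was 8.19 for control, 6.33 for ICI, 5.67 for melanoma and 4.19 for melanoma plus ICI. As a share of a library's counts, the 48 genes together took 0.145%, 0.325% and 0.618% on the rich side (lowest, median, highest) and 0.0462%, 0.0647% and 0.165% on the poor side. Enpp2 alone took 0.0578% to 0.328% on the rich side and Ttr 0.0811% to 0.623%. Per kilobase of gene length, the mean rich level was 2770 CPM for Ttr (here on the scaled library size, as for the other genes), 499 CPM for Enpp2, 46.0 CPM for Igfbp2, 39.5 CPM for 1500015O10Rik, 20.04 CPM for Clic6 and 13.8 CPM for Kcne2.

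**Figure D4:**
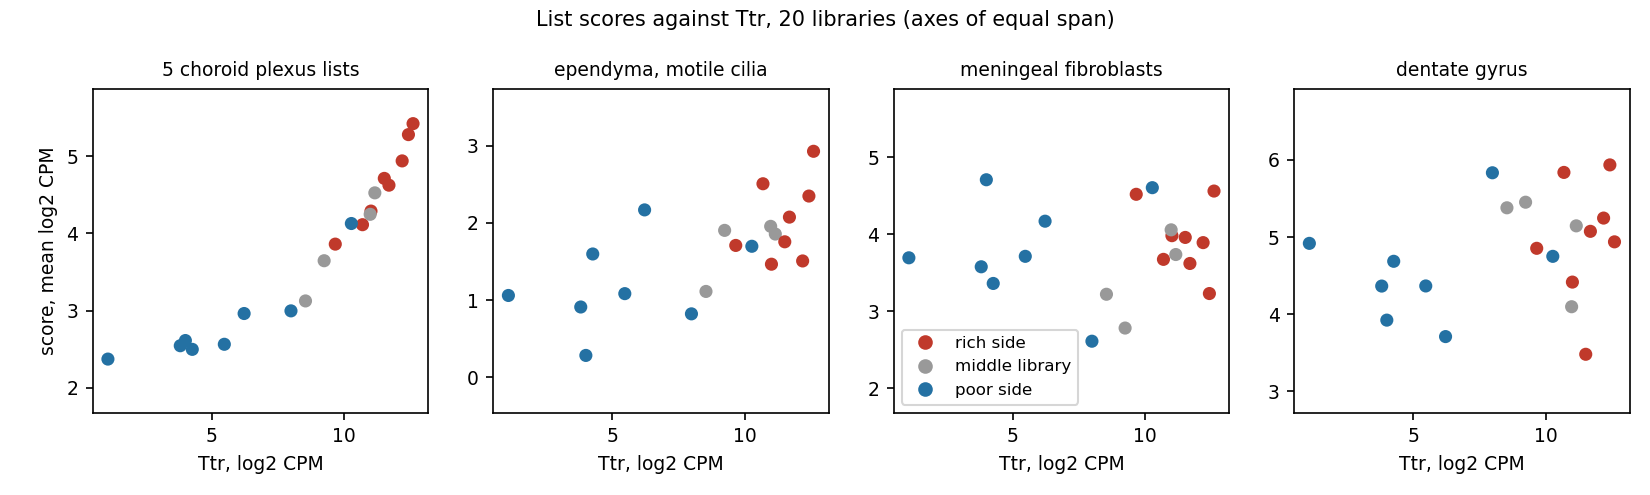
Mean log2 CPM of 4 gene lists against log2 CPM of Ttr in the 20 libraries, on vertical axes of equal span, with red rich, grey middle and blue poor libraries. The score of the 5 choroid plexus lists runs from 2.37 to 5.42 and climbs with Ttr, while the meningeal score ranges from 3.23 to 4.56 on the rich side and from 2.61 to 4.71 on the poor side.

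Other cell types of the ventricle and its borders were read from their own lists. Of 25 ependyma and motile cilia genes, 4 were higher on the rich side, beside 2.00% of all genes, and 24 stood above 0, at a median log2 fold change of 0.82. The 4 were Drc7, part of the dynein regulatory complex of cilia, with 11.4, 24.8 and 55.1 CPM on the rich side and 1.76, 4.41 and 13.4 CPM on the poor side (2.26 ± 0.37, adjusted p = 0.00471), the dynein heavy chain genes Dnah6 (1.92 ± 0.38, adjusted p = 0.0155) and Dnah11 (1.60 ± 0.35, adjusted p = 0.0273), and Pifo (1.63 ± 0.29, adjusted p = 0.00827), a gene of the cilium base. The markers Ccdc153 and Tmem212, which define ependymal cells, stood at 0.26 ± 0.47 (adjusted p = 0.772) and 0.44 ± 0.54 (adjusted p = 0.658), and both varied several-fold within each side. In the fit without the libraries that stood apart, 2 of the 25 passed. With Ttr as a continuous covariate over 20 libraries, the 4 passed and so did Spag16 (adjusted p = 0.0121), Tekt1 (0.0155), Cfap126 (0.0314) and Dnali1 (0.0378). The other members, Ccdc153 and Tmem212 among them, did not pass in that fit. Choroid plexus cells carry cilia of their own, and which cells gave the 4 genes was not tested.

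Stroma and vessels did not follow the split past the threshold in the edgeR fit of the 16 libraries. Of 20 genes of meningeal fibroblasts and stroma 0 passed, at a median log2 fold change of 0.17, with Dcn at -0.78, Col1a1 at 0.29 and Lum at 0.55. Of 16 brain endothelial genes 0 passed and 13 stood above 0, at a median of 0.13. Cldn5, which seals the capillaries of the blood-brain barrier, stood at -0.29. The fenestrated capillaries of the choroid plexus are marked by Plvap, which stood at 0.07 (adjusted p = 0.747), and 0 of 6 tested genes of that list passed. Of 10 genes of pericytes and smooth muscle 0 passed. Under the 29 alternative settings, Ocln of the endothelial list passed in 7 (adjusted p from 0.00827 to 0.288). Col1a2 of the stromal list passed in 2 (0.00586 to 0.831), and Lum, Slco1a4 and Ackr1 passed in 1 each. In the edgeR fit of the 16 libraries a difference in these cells was not detectable, which does not show that they were equal.

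Immune cells were read in the same way. Of 13 genes of border macrophages, the macrophages of meninges, vessels and choroid plexus, 0 passed and 11 stood above 0, at a median log2 fold change of 0.37. The nearest was Folr2, a folate receptor of such macrophages, with 0.130 to 1.07 CPM on the rich side and 0.0821 to 0.407 CPM on the poor side (1.49 ± 0.38, adjusted p = 0.0586), and Folr2 lies beside Folr1 with opposite-strand counts at 189% of its own. Cd74, the invariant chain of antigen-presenting cells, had 3.95 to 10.9 CPM on the rich side and 1.00 to 7.41 CPM on the poor side (0.96 ± 0.26, adjusted p = 0.0802). Of 14 microglial genes 0 passed, at a median of -0.10, and of 11 MHC class I genes and 15 type I interferon response genes 0 passed, at medians of 0.15 and 0.22. The border macrophage count was 3 with DESeq2, 1 with limma voom and 3 without melanoma plus ICI replicate 2.

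Complement genes gave 3 higher of 13, beside 2.00% of all genes tested. C3, the central complement protein, had 1.96, 4.18 and 9.43 CPM on the rich side and 0.509, 1.08 and 2.90 CPM on the poor side, a log2 fold change of 1.99 ± 0.42 (adjusted p = 0.0247). Cd59a and Cd55, which protect cells from complement, differed by 1.26 ± 0.21 (adjusted p = 0.00621) and 0.75 ± 0.17 (adjusted p = 0.0386). Under the 29 alternative settings, Cd55 lost the threshold in 17 (adjusted p from 0.00261 to 0.279), C3 in 12 (5.75e-05 to 0.219) and Cd59a in 1. The microglial subunit genes C1qa, C1qb and C1qc stood at -0.18, -0.09 and -0.06 and C4b at 0.17, none past the threshold. C3 and Steap4, a metal reductase that differed by 2.33 ± 0.30 (adjusted p = 0.00231), were also the 2 higher members among 19 tested genes of the reactive astrocyte list, again beside 2.00% of all genes. The other members, among them Lcn2 at 0.46 ± 0.83, Serpina3n at -0.04 and Vim at 0.25, did not pass, and neither did any of 11 astrocyte genes. Without the pair of libraries that stood apart, 1 complement gene and 1 reactive astrocyte gene passed.

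**Figure D5:**
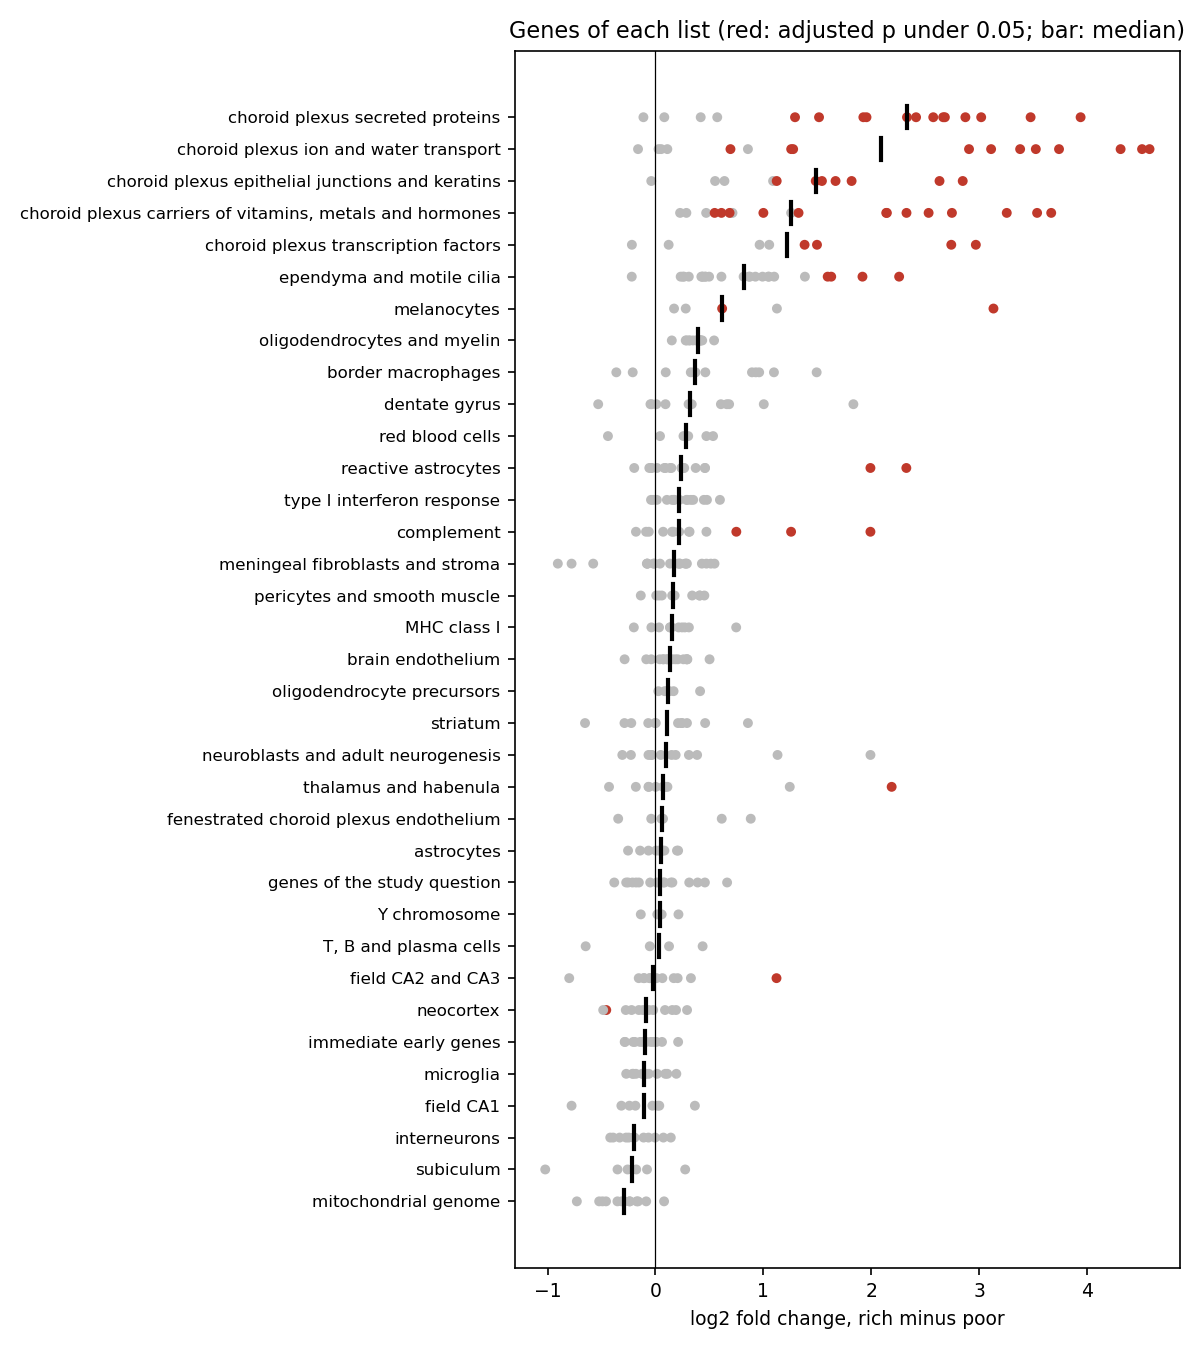
Log2 fold change of rich over poor libraries for the tested genes of 35 lists, 1 point per gene, red where the adjusted p was under 0.05, with a black bar at each list's median. The 5 choroid plexus lists lie at the top with medians of 1.22 to 2.33, followed by ependyma at 0.82, melanocytes at 0.62, oligodendrocytes and myelin at 0.39 and border macrophages at 0.37.

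Regions of the hippocampus and its neighbours gave single genes at most. The neocortex list had 1 lower gene of 12, Rorb, a nuclear receptor of neocortical neurons. The thalamus and habenula list had 1 higher gene of 11, the nicotinic receptor subunit gene Chrnb4 (2.19 ± 0.51, adjusted p = 0.0366), which was scarce at 0.165 to 2.01 CPM on the rich side and 0.0411 to 0.407 CPM on the poor side. The list of fields CA2 and CA3 had 1 higher gene of 13, the kinase gene Map3k15 (1.12 ± 0.27, adjusted p = 0.0487), whose opposite-strand neighbour held 5451% of its counts. Beside these counts, 0.114% of all genes tested were lower and 2.00% higher. Leaving out the pair that stood apart, none of Rorb, Chrnb4 and Map3k15 passed. Of 12 dentate gyrus genes, 8 CA1 genes, 7 subiculum genes, 12 interneuron genes and 12 striatum genes 0 passed. Of the 16 tested genes that bear on the series' question of inflammation and degeneration 0 passed, with Gfap at 0.08, Aif1 at -0.27, Syp at -0.25, Mbp at 0.39 and Cd274, which encodes the ligand of PD-1, at 0.14.

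Of the 15 largest rises among genes with a mean of at least 1 CPM, 10 belong to the choroid plexus lists. Mfrp, a frizzled-related membrane protein known from retinal pigment epithelium, had 11.8, 36.8 and 90.7 CPM on the rich side and 0.415, 1.01 and 19.4 CPM on the poor side, a log2 fold change of 3.78 ± 0.66 (adjusted p = 0.00735). Wdr86 differed by 3.51 ± 0.53 (adjusted p = 0.0031) and the serine protease gene Tmprss11a by 3.49 ± 0.65 (adjusted p = 0.0105). Cdh3, or P-cadherin, an epithelial adhesion protein, had 0.912, 2.26 and 5.92 CPM on the rich side and 0.0858, 0.172 and 1.55 CPM on the poor side, and differed by 3.19 ± 0.46 (adjusted p = 0.00267). Tmprss11a was the 1 gene of the 15 that lost the threshold without the pair of libraries that stood apart (2.97, adjusted p = 0.055).

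The last of the 15, Oca2, encodes a melanosome membrane protein and is 1 of 2 higher genes among 5 tested of the melanocyte list, beside 2.00% of all genes, and the list's median log2 fold change was 0.62. It had 1.65, 4.67 and 10.7 CPM on the rich side and 0.0784, 0.378 and 2.36 CPM on the poor side, a log2 fold change of 3.13 ± 0.54 (adjusted p = 0.00643). The rich mean was higher in all 4 treatment groups. The other was Mitf, a factor of melanocytes and pigment epithelia (0.62 ± 0.13, adjusted p = 0.0248). Under the 29 alternative settings Mitf lost the threshold in 9 (adjusted p from 0.000874 to 0.318) and Oca2 in 1. All 5 tested genes of the list stood above 0, and those that did not pass were Sox10 at 0.28, Pmel at 0.17 and Dct at 1.13 ± 0.35 (adjusted p = 0.132). The 4 too scarce to test held 16 against 18 counts for Tyr, 41 against 21 for Tyrp1, 12 against 17 for Mlana and 30 against 37 for Slc45a2, summed over the 8 rich and the 8 poor libraries.

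Of the 21 genes lower on the rich side, 5 differed by more than 2-fold and 1 by more than 4-fold, and 16 had a mean of at least 1 CPM. The lower one with the smallest p among the 15 named was Nr2f1, a nuclear receptor that patterns cortex and hippocampus, with 46.3, 54.3 and 60.7 CPM on the rich side and 59.7, 76.6 and 95.5 CPM on the poor side, a log2 fold change of -0.52 ± 0.09 (adjusted p = 0.00735). The 3 highest libraries were melanoma plus ICI replicate 1, control replicate 4 and control replicate 1, and without the first 2 of these it stood at -0.45 (adjusted p = 0.0404). Marcks, an actin-binding protein of growing neurites, had 67.3, 78.6 and 93.3 CPM on the rich side and 80.1, 116 and 164 CPM on the poor side (-0.50 ± 0.12, adjusted p = 0.0401). Rorb, named above, differed by -0.46 ± 0.11 (adjusted p = 0.0432) and Htr3a, a serotonin-gated channel of interneurons, by -0.58 ± 0.13 (adjusted p = 0.0329).

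The 21 lower genes, of which fewer were protein coding as given above, had a median length of 2083 bases, against 3619 over all genes and 3974 over the higher ones, and this was not tested. Of the 15 largest falls, Gm42971, Gm12925, Gm19938, Rps4l and Mrm3 overlap other genes with more counts than their own, on the same strand for Gm42971 and Gm19938 and on the opposite one for the other three, so their reads cannot be told apart. The rest of the 15 were Spin2c, Exo5, Iqcb1, Decr2, Fam171a2 and Tmeff2, at log2 fold changes from -0.59 to -0.26. Rps4l, Decr2 and Tmeff2 were the 3 of the 15 whose sides did not overlap, as was so, with lower rich values, for 12 of all genes tested (0.0651%). Of the 15, only Nr2f1 passed without the pair of libraries that stood apart.

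Whether the gap between rich and poor libraries differed between treatments was tested by 3 interaction terms at once. Of the genes tested 0 passed (0.00%), while 371 (2.01%) had an unadjusted p under 0.05, DESeq2 gave 4 genes, limma voom 0, and edgeR with no filter on low counts 634. The smallest p-values were those of Hbb-bs, a globin of red blood cells (unadjusted p = 0.000277), Ppfibp2 (0.000582), and Chdh, a choline dehydrogenase (0.000585), all with an adjusted p of 0.994. Chdh had 14.8 and 15.96 CPM in rich against 5.17 and 5.58 CPM in poor control libraries, and 10.8 and 13.7 against 11.1 and 11.3 CPM in melanoma. With 2 libraries per side and group, the spread behind this test rests on 8 residual degrees of freedom.

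Whether the treatments differed once the side was held in the model was tested in the same libraries. By edgeR 0 genes passed (0.00%), 756 (4.10%) had an unadjusted p under 0.05, DESeq2 gave 25 genes and limma voom 9. The smallest p-values were those of Lyz2, a lysozyme of myeloid cells (0.000321), Lsr, a protein of tricellular junctions (0.000362), and Igfbp2 (0.000406), with an adjusted p of 0.924 for each. Lyz2 had 2.70 and 3.001 CPM in the poor ICI libraries and 4.89 and 5.07 CPM in the rich ones, below the 6.18 to 6.85 CPM of the 4 control libraries. Igfbp2, which passed between rich and poor but not between treatments, had 130 and 134 CPM in rich control libraries and 37.2 and 57.8 CPM in rich ICI libraries, against 34.6 and 38.1 CPM and 18.4 and 20.3 CPM on the poor side, while the rich melanoma plus ICI libraries stood at 64.8 and 145 CPM. Over all 20 libraries, the score of the 5 choroid plexus lists itself averaged 4.22 ± 1.05 (SD, n = 5) with melanoma plus ICI, 3.97 ± 1.32 for control mice, 3.48 ± 0.80 with ICI alone and 3.42 ± 0.82 with melanoma alone, and the ranges of all 4 groups overlapped.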

How the data were processed

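Bulk RNA-seq counts of 20 hippocampi were used. Per the labels, the deposited values are raw counts per gene, 1 table per library with gene coordinates and lengths. The submitters' processing notes name STAR 2.5.2b and DESeq2 1.16.1. The counter, its use of strand and the genome build are not given in the sources used here, and symbols were taken from GENCODE M21 (GRCm38).

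The sides were formed by the rank of Ttr within each treatment group. Genes were kept by filterByExpr on the treatment groups over all 20 libraries (minimum count 10, minimum total 15), which left 18427 with Ttr. edgeR 4.0.16 in R 4.3.3 fitted a robust quasi-likelihood model with TMM scaling to the 16 libraries, with treatment group and side (11 residual degrees of freedom). P-values were adjusted by Benjamini-Hochberg over all genes, at a threshold of 0.05. Printed CPM values, other than the Ttr levels that placed the libraries, are per 1000000 of the TMM-scaled library size, log2 CPM uses a prior count of 2, and scores average this over the tested genes of a list. A fold change is that of the fitted model, and SE is its standard error. Opposite-strand percentages divide the counts of overlapping genes by the gene's own.

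Named genes are the 15 largest rises and falls past the threshold with a mean of at least 1 CPM, those with the smallest p in each list, the listed genes of the study question, the 3 smallest p of the other tests and the 5 most like Ttr; further list members are named where their role asks for it, and 3 list members are not reported here. The members and lists were chosen with earlier results of these data known. Alternatives were other scaling, DESeq2 1.42.0, limma 3.58.1 voom with quality weights, no filter, a replicate block, other ways to form the sides, tissue scores as covariates and leaving out libraries. The script was tested on simulated data with 200 changed genes. Counts limit the precision of scarce genes, since 1 CPM is 22.0 to 25.7 counts.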

Additional observations from a re-analysis of the deposited data

Results flagged for a closer look

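Within the 8 libraries of a side, single libraries stood far from the rest in 12 of the 132 sets of values tested (list scores and named genes). The rule marks about 1 in 20 by chance where sets are independent and their libraries alike. These sets share libraries and genes and pool 4 treatment groups, so their count cannot be set against that rate. Melanoma plus ICI replicate 2 was the high value of the poor side in 6 of them. Its scores, as mean log2 CPM, were 4.13 for the 5 choroid plexus lists together (next 2.996), 3.82 for the carriers (next 2.81) and 5.56 for the secreted proteins (next 4.05). Its log2 CPM was 1.67 for Steap1 (next -0.51), 3.59 for Kcnj13 (next 1.06) and 0.71 for Cdh3 (next -1.83). This library was placed on the poor side by rank within its group, at 1237 CPM of Ttr. It held more Ttr than any other poor library, so high values there of genes that follow Ttr come with the way the sides were formed.

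The other 6 did not concern the choroid plexus lists. On the poor side, control replicate 4 had a microglia score of 4.72 (next 4.45) and melanoma replicate 3 a striatum score of 6.19 (next 3.38). On the rich side, melanoma plus ICI replicate 3 had the lowest CA1 score, 5.15 (next 5.89), and the lowest log2 CPM of Rps4l, 3.25 (next 3.71), and of Tmeff2, 5.88 (next 6.05). Melanoma replicate 5, also rich, had the lowest score of the mitochondrial genome, 6.52 (next 6.79).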

How the results depend on the processing

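The count of 389 genes stayed within 1.5 times under other size factors, no scaling factor, no filter on low counts, no treatment covariate, Ttr as a continuous covariate, and tissue scores as covariates. Sides formed by the choroid plexus lists were the same 16 libraries, hence the same fit. It moved to 845 with DESeq2, 815 with limma voom, 179 without the pair of libraries that stood apart and 127 with only the highest and lowest library of each group; leaving out each library in turn gave 199 to 516. Of the called genes 94.6% were higher, against 82.2% with DESeq2 and 78.9% with continuous Ttr. All 389 kept their sign in every fit. Apart from the replicate block, the choroid plexus count of 48 lay between 38 and 53, with 42 to 48 on leaving out a library. Replicate numbers mark no shared litter, batch or day in the labels, and libraries numbered 1 were all poor or middle and those numbered 5 all rich or middle, so a block coincides in part with the side. The replicate block gave 0 genes (4393 at an unadjusted p under 0.05), 0 of them choroid plexus genes; under it the adjusted p was 0.0767 for Kcne2 and 0.0738 for Enpp2. Correlations within a number averaged between -0.11 and 0.16, and 8 of 20 libraries, not all, correlated best with their own among the 5 numbers, a hint from the data and not from the design. The interaction gave 4 genes with DESeq2 and 634 with no filter; treatment given side gave 25 with DESeq2 and 9 with limma voom; both gave 0 on leaving out any library. Of 435 values of the 15 rises under all settings 16 lost the threshold, and of 435 values of the 15 falls 222 did; none reversed. The cause of these shifts was not tested.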

Other observations

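Among abundant genes outside the lists, 3 chosen after their values were seen moved with the choroid plexus genes. Trpm3, a cation channel of neurons and choroid plexus, had 72.0, 106 and 177 CPM on the rich side (lowest, median, highest) and 10.0, 36.7 and 77.9 CPM on the poor side, a log2 fold change of 1.55 ± 0.34 (adjusted p = 0.0273). Col9a3, a chain of collagen IX, had 31.7, 88.3 and 146 CPM on the rich side and 9.91, 14.9 and 39.5 CPM on the poor side (2.30 ± 0.29, adjusted p = 0.00231). Neat1, the long noncoding RNA of nuclear paraspeckles, had 257, 351 and 479 CPM against 145, 195 and 285 CPM (0.85 ± 0.15, adjusted p = 0.00829). All 3 were higher on the rich side in all 4 treatment groups. The largest fold change past the threshold besides Ttr, also noted after the values were seen, was that of Olfr1507, an olfactory receptor gene with a mean of only 0.402 CPM (log2 fold change 5.28).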
